A study of Mus musculus with 2 samples.

Results

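Cluster 15 is a small population among the interstitial cells of the infarcted mouse ventricle, described here through the 1376 genes that the deposited comparison of both genotypes lists for it. Every gene of that table was taken, out of 6477 different genes listed over the tables of 18 clusters. The study gave the cluster no cell type name and described it as unidentified or mixed. For each gene the table gives the share of the cluster's cells with a value above 0 in each of 2 libraries, and the step between the shares placed 22 cells in one library and 32 in the other, 54 of 6020 cells inferred over the 18 clusters.

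Both libraries were made from live-sorted interstitial cells of ventricles of adult mice after myocardial infarction (MI), on the droplet-based 10x Chromium system. Postn-MerCreMer (PostnMCM) was present in all mice: a Cre recombinase that tamoxifen switches on, driven from the Periostin locus, which is active in activated fibroblasts, and was combined with a Rosa26 eGFP reporter. All received chow with tamoxifen at 0.4 g/kg from the infarction on, and per the labels hearts were taken 6 days after it, while the study's text gives a later day. The control library came from PostnMCM hearts, and the other from Yapfl/fl;Wwtr1fl/+;PostnMCM hearts, in which both alleles of Yap1 and a single allele of Wwtr1 (encoding TAZ) can be deleted. Each genotype is 1 library, the number of hearts behind it is not given in the sources used here, and a difference between the libraries cannot be told apart from a difference between the mice or preparations they came from.

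Yap1, Wwtr1 and Postn were not listed for cluster 15 or for any other cluster. They had values only in the tables of 4 fibroblast subclusters, where Yap1 was found in 40% to 56.2% of cells of the targeted library and in 23.3% to 57.5% of control cells, and Wwtr1 in 60% to 91.3% and in 80% to 100%. Yap1 was higher in the targeted library in 3 of the 4 subclusters and Wwtr1 in 1 of 4, so the targeted transcripts did not check the label. The second library is named only by its label, as the depletion-labelled library. In stained heart sections of this genotype the study reported less nuclear Yap and Wwtr1 in eGFP-positive cells, which is a measure of protein.

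Plasmacytoid dendritic cells are the candidates that the listed marker genes point to. These cells circulate in blood and sense viral and self nucleic acids through endosomal Toll-like receptors, chiefly TLR7 and TLR9. They answer with large amounts of type I interferon and, once activated, with chemokines and antigen presentation. In the mouse they are recognised by the lectin SIGLEC-H and by BST2.

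Of 11 marker genes of plasmacytoid dendritic cells, 6 were listed for cluster 15, and all of them were found in most cells of both libraries. Siglech, the sialic acid-binding lectin, was present in 22 of 22 cells of the depletion-labelled library and in 32 of 32 control cells. Bst2, which encodes tetherin, was likewise present in every cell of both libraries. Ccr9, a chemokine receptor, was found in 100% of cells of the depletion-labelled library and in 96.9% of control cells. Klk1, a tissue kallikrein, was found in 100% and 93.8%, in the same order. Cox6a2, a subunit of cytochrome c oxidase, was found in 90.9% and 100%. Ly6d, a surface protein of lymphoid progenitors, was found in 72.7% and 87.5%. None of the 6 differed by 25 percentage points or more, the size used here to call a share higher or lower. The other 5 markers (Tcf4, Irf7, Spib, Runx2 and Atp1b1) were not listed and so have no value for these cells. By the listed markers cluster 15 is plasmacytoid dendritic cell-like in both libraries.

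Values of the same markers in other cells varied by gene. Siglech was listed for only 1 other cluster, cluster 17, which the study named dendritic cells, at 0.0% of cells of the depletion-labelled library and 30% of control cells. In the 4 fibroblast subclusters it was found in 0.0% to 10% and 0.0% to 4.1% of cells. Klk1 and Cox6a2 were listed for no other cluster and were found in at most 6.7% and 8.7% of cells of any fibroblast subcluster. Bst2, Ccr9 and Ly6d were less restricted. Bst2 was listed for 12 other clusters and was found in all cells of 3 fibroblast subclusters. Ccr9 was listed for 3 other clusters, in 46.5% to 64.8% of cells of the depletion-labelled library and 6.0% to 63% of control cells, and was found in up to 30% of cells of a fibroblast subcluster. Ly6d was also listed for 3, in 60.8% to 79.4% and 29.6% to 100%.

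**Figure D1:**
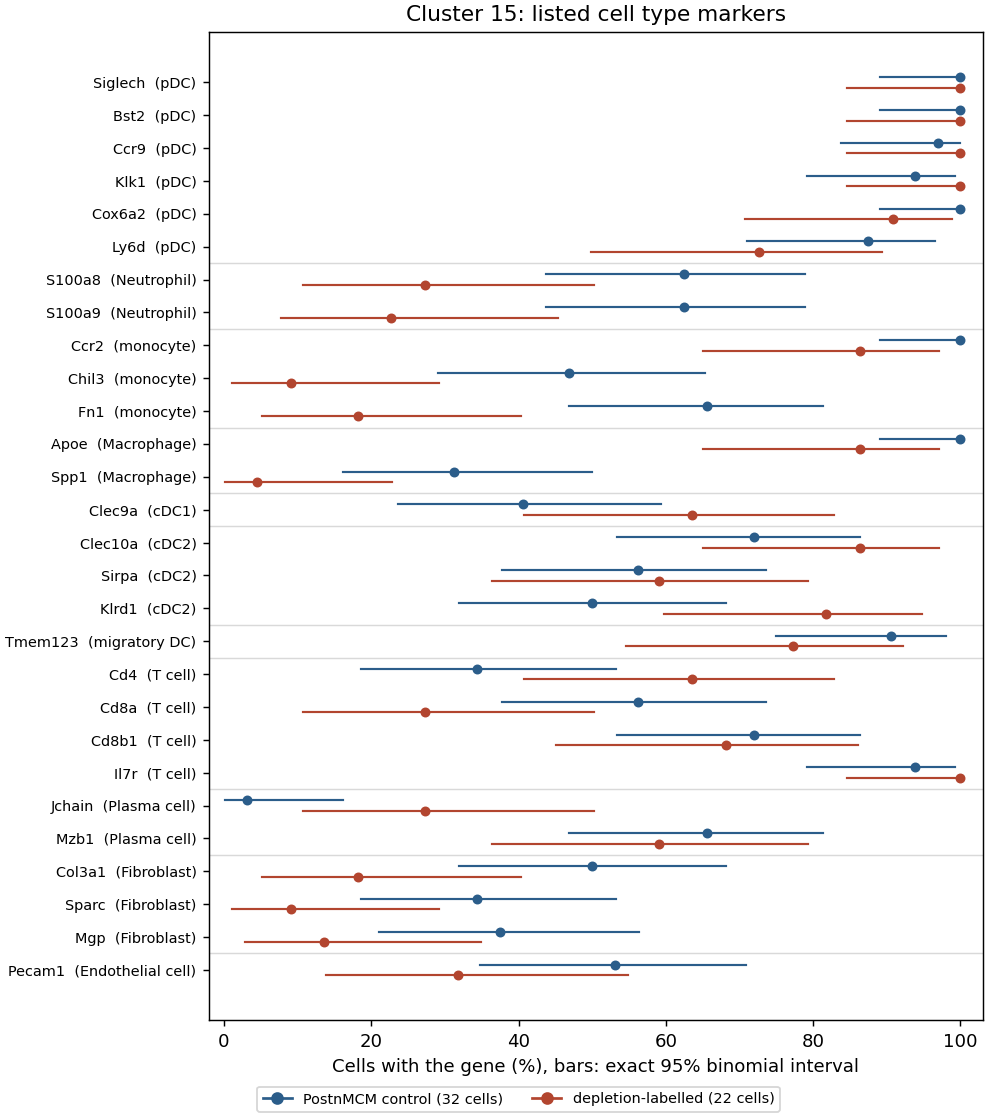
Share of cells of cluster 15 with each listed cell type marker (x axis, percent), for the PostnMCM control library (blue, 32 cells) and the depletion-labelled library (red, 22 cells); bars are exact 95% binomial intervals on the inferred cell numbers. The 6 plasmacytoid dendritic cell markers (pDC) sit at 72.7% or above in both libraries, and both neutrophil and all 3 fibroblast markers sit lower in the depletion-labelled library.

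Genes used here as markers of other cell types were listed as well. Il7r, the interleukin-7 receptor chain, was found in 100% of cells of the depletion-labelled library and in 93.8% of control cells, and Cd8b1, a chain of the CD8 co-receptor, in 68.2% and 71.9%. Cd4 was found in 63.6% and 34.4%, and Cd8a in 27.3% and 56.2%. Clec10a, a lectin of conventional dendritic cells, was found in 86.4% and 71.9%, and Clec9a, a marker of cross-presenting dendritic cells, in 63.6% and 40.6%. Klrd1 was found in 81.8% and 50%. Mzb1, a secretory chaperone that is abundant in plasma cells, was found in 59.1% and 65.6%, and Jchain in 27.3% and 3.1%. In the fibroblast subclusters, which should lack them, Jchain was found in 0.0% to 23.8% and 0.0% to 2.5% of cells, and Cd8a in 8.7% to 30% and 0.0% to 6.7%. Jchain in cluster 15 exceeded the highest of these by less than the worth of 1 cell in both libraries. Cd8a in the depletion-labelled library did not exceed it. The shares of Jchain, and of Cd8a in the depletion-labelled library, do not by themselves show expression, and their source was not tested. Cd8a in control cells of cluster 15 lay above the 6.7% of the fibroblasts. In the same subclusters Il7r, Cd4, Clec10a, Klrd1 and Mzb1 were each found in at most 10% of cells of either library and Cd8b1 in at most 28.6%. Because every cell carried Siglech, each cell with any of these genes also carried Siglech. The T cell receptor genes Cd3d, Cd3e and Trac and the B cell and natural killer markers were not listed, which says only that they failed the limits of the table. The files hold no cell barcodes, so doublets and barcodes shared between the libraries could not be examined.

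Genes listed for cluster 15 alone and found in at least 70% of its cells in both libraries numbered 14, a group chosen after the values were seen. Besides Klk1 and Cox6a2 it held the kallikrein Klk1b27, found in 95.5% of cells of the depletion-labelled library and 84.4% of control cells. Klk1b27 and Klk1 belong to a family of near-identical genes, so their reads may be split between copies. Cd300c, an immune receptor, was found in 100% and 75%, and Csf2rb2, the signalling chain of the mouse interleukin-3 receptor, in 90.9% and 75%. Slc29a3, a lysosomal nucleoside transporter, was found in 81.8% and 90.6%, and Lefty1, an inhibitor of Nodal signalling, in 77.3% and 84.4%. Cacna1e, a voltage-gated calcium channel, was found in 72.7% and 71.9%. The other members were Apc, Atp5a1, Cxxc5, D17H6S56E-5, Plekhm3 and Timm13. Cd300c, at a difference of 25 points, was the only member of the 14 that reached the size rule. Being listed alone did not mean being found in cluster 15 alone. Over both libraries of the fibroblast subclusters Lefty1 was found in 33.3% to 63.3% of cells, Slc29a3 in 23.3% to 60%, Apc in 43.5% to 67.5%, Cxxc5 in 40% to 75%, Timm13 in 95% or more and Atp5a1 in 99.3% or more, and D17H6S56E-5 in up to 95.7%.

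Across all 1376 genes, 624 had a higher share in the depletion-labelled library, 694 a lower share and 58 an equal one. All 58 equal genes were at 100% in both libraries, where a share can show no difference. The median difference was -0.60 points, with quartiles at -17.68 and 19.0 points. By the size rule 172 genes were higher in the depletion-labelled library, 12.5% of those listed, and 164 were lower, 11.9%. Cells are not replicates, so these counts rank genes by size and carry no test. In the depletion-labelled library 1 cell was worth 4.55 points and in the control library 3.12 points. The exact 95% interval of a share of 50% ran from 28.2% to 71.8% on 22 cells and from 31.9% to 68.1% on 32 cells, and these intervals cover counting error only.

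**Figure D2:**
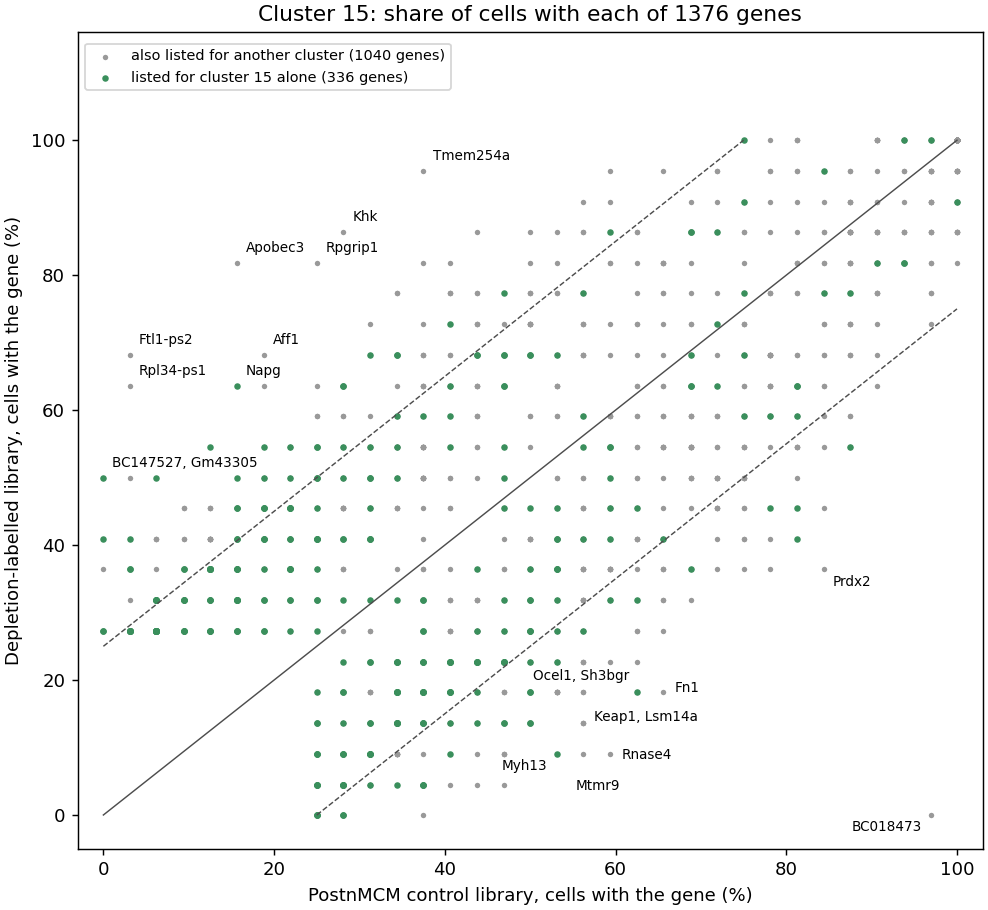
Share of cells with each of the 1376 genes in the control library (x axis, percent) and the depletion-labelled library (y axis, percent); the solid line marks equal shares and the dashed lines 25 points, and many genes overlap because only 22 and 32 cells were compared. BC018473 stands alone at 96.9% of control cells and 0.0% of cells of the depletion-labelled library, and green points are genes listed for cluster 15 alone.

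The largest difference of the table belonged to BC018473, a long noncoding RNA gene at chr11:116642993-116650199 (GRCm39, plus strand). It was found in 31 of 32 control cells and in 0 of 22 cells of the depletion-labelled library, a count that allows a share of up to 13.6% of cells with a value when 3 counts are taken as the limit (the exact 95% interval reaches 15.4%), which does not limit the cells expressing it. BC018473 was also listed for 15 other clusters, where it was found in 29% to 100% of control cells and in at most 1.1% of cells of the depletion-labelled library. The limit of 25% on listing fixes the lower end of the control range, and in the fibroblast subclusters, without that limit, it was found in 2.5% to 8.7% of control cells and in no cell of the depletion-labelled library. All clusters come from the same 2 libraries, so these values are not independent of each other.

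The protein-coding genes with the largest lower shares in the depletion-labelled library followed. Rnase4, a secreted ribonuclease (chr14:51328534-51343608), was found in 2 of 22 cells against 19 of 32 control cells, or 9.1% against 59.4%. Prdx2, a peroxiredoxin that removes hydrogen peroxide (chr8:85693354-85702350), was found in 36.4% against 84.4%, with intervals from 17.2% to 59.3% and from 67.2% to 94.7%. Fn1, encoding fibronectin (chr1:71624673-71692419), was found in 18.2% against 65.6%. Keap1, the adaptor that marks the oxidant-response factor NRF2 for degradation, was found in 13.6% against 56.2%, the same shares as Lsm14a, a protein of cytoplasmic RNA granules. Mtmr9, a catalytically inactive relative of the myotubularin phosphatases, was found in 9.1% against 56.2%, and Ocel1 in 18.2% against 62.5%.

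These genes were also listed for other clusters of the same libraries. Prdx2 was listed for 8, in 56.2% to 81.8% of cells of the depletion-labelled library and 71.9% to 94.7% of control cells. Ocel1 was listed for 10, in 4.3% to 31.2% and 35.3% to 60.4%. Mtmr9 was listed for 6, in 0.0% to 20.8% and 25% to 64.6%, but a gene is listed only where at least 25% of cells of either library carry it, which bounds the higher share. In the fibroblast subclusters, whose tables have no such limit, Mtmr9 was found in 34.4% to 52.4% and 30.4% to 53.3%, which overlap. Ocel1 was found there in 9.5% to 26.1% and 52.2% to 77.2%. Fn1 was listed for 6 other clusters, from 31.2% to 92.9% and from 54.5% to 93.2% of cells.

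Among genes with higher shares in the depletion-labelled library, the retroviral restriction factor Apobec3, a cytidine deaminase (chr15:79775860-79800206), led the table. It was found in 18 of 22 cells and in 5 of 32 control cells, or 81.8% against 15.6%, a difference of 66.2 points. Apobec3 was listed for 13 other clusters at 30% to 81.8% and 9.1% to 50% of cells. In the fibroblast subclusters, without a listing limit, it was found in 37.5% to 78.3% and 21.7% to 52.5%, with a lower share in the depletion-labelled library in 2 of 4. Processed pseudogenes followed. Ftl1-ps2 (chr10:130428026-130428574), a copy of the ferritin light chain gene, was found in 68.2% against 3.1% and Rpl34-ps1, a copy of a ribosomal protein gene, in 63.6% against 3.1%. Ftl1-ps2 was listed for all 17 other clusters, with at most 5.2% of control cells in any, and Rpl34-ps1 for 15. The limit on listing bounds the higher share there. In the fibroblast subclusters Ftl1-ps2 was found in 80% to 100% against 0.0% to 2.5%, and Rpl34-ps1 in 65.6% to 85.7% against 20.7% to 45%. Reads of such copies can be assigned to the parent gene or to the copy, so their values are uncertain.

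Other genes at this end were listed for at most 5 other clusters. Khk, the ketohexokinase that starts fructose breakdown (chr5:31078775-31101479), was found in 19 of 22 cells against 9 of 32, or 86.4% against 28.1%. Aff1, a scaffold of the transcription elongation machinery (chr5:103840240-104003188), was found in 68.2% against 18.8%. Rpgrip1, a protein of the connecting cilium of photoreceptors, was found in 81.8% against 25%, and the noncoding gene Gm43305 in 50% against 0.0%. Tmem254a, a membrane protein gene with near-identical neighbours, was found in 95.5% against 37.5%. Tmem254a was higher in 5 of 5 other clusters, at 25% to 89.3% against 0.0% to 49.3%. Gm43305 was higher in 4 of 4, at 33.9% to 66.8% against 0.0% to 0.5%, and Rpgrip1 in 2 of 2, at 32.8% to 38.6% against 0.0% to 7.4%. In the fibroblast subclusters, without a listing limit, Tmem254a and Rpgrip1 were higher in 4 of 4 and Gm43305 in 3. Khk was listed with an opposite difference in cluster 17, at 18.2% against 55%. Aff1 was opposite in cluster 18, at 29.4% against 54.5%, and higher in cluster 9, at 46.6% against 41.2%. Clusters 17 and 18 hold 31 and 28 cells.

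Genes listed for cluster 15 and for none of the other 17 clusters numbered 336, or 24.4% of the table. Of these, 177 had a higher and 159 a lower share in the depletion-labelled library. By the size rule 44 were higher, 13.1% against 12.5% over the whole table, and 33 were lower, 9.82% against 11.9%. Both shares lay near those of the whole table, which gives no result about this group, and absence from another table means that the gene missed its limits of detection or fold there, not that it was unchanged.

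The named genes of this group with higher shares in the depletion-labelled library had the following values. Gsdmd, the pore-forming effector of pyroptosis (chr15:75733974-75739257), was found in 9 of 22 cells of the depletion-labelled library and in 0 of 32 control cells, which allows a share of up to 9.38% by the same limit of 3 counts (the exact 95% interval reaches 10.9%). Cd59a, an inhibitor of the complement membrane attack complex (chr2:103926132-103947029), was found in 11 cells against 2, or 50% against 6.2%. Napg, a factor that takes apart SNARE complexes after membrane fusion, was found in 63.6% against 15.6%. Hpse, the enzyme that cleaves heparan sulfate, was found in 68.2% against 31.2%. BC147527 was found in 50% against 0.0%.

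The named genes of the group with lower shares were these. Myh13, a myosin heavy chain known from extraocular muscle (chr11:67212484-67262413), was found in 2 of 22 cells against 17 of 32 control cells, or 9.1% against 53.1%. Sh3bgr was found in 18.2% against 62.5%. Slc25a12, the mitochondrial carrier of aspartate and glutamate, was found in 45.5% against 81.2%, and Klhl42, a substrate adaptor of a ubiquitin ligase, in 40.9% against 81.2%. Stox2 was found in 13.6% against 50%, and Thumpd3, a tRNA methyltransferase, in 13.6% against 46.9%. The fibroblast subclusters, whose tables have no limits, show that several of these genes were also measured elsewhere. Gsdmd was found there in 50% to 78.3% of cells of the depletion-labelled library and in 40% to 66.2% of control cells, and Klhl42 in 15.6% to 33.3% and 15% to 31%. Of the named genes with higher shares in cluster 15, Gsdmd was higher in 4 of 4 subclusters and Cd59a and Napg in 3. Hpse was lower in 4 of 4, at 0.0% to 13% against 10% to 36.7%. Of those with lower shares, Slc25a12, Stox2 and Thumpd3 were lower in 3 of 4, Klhl42 in 2 and Sh3bgr in none.

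**Figure D3:**
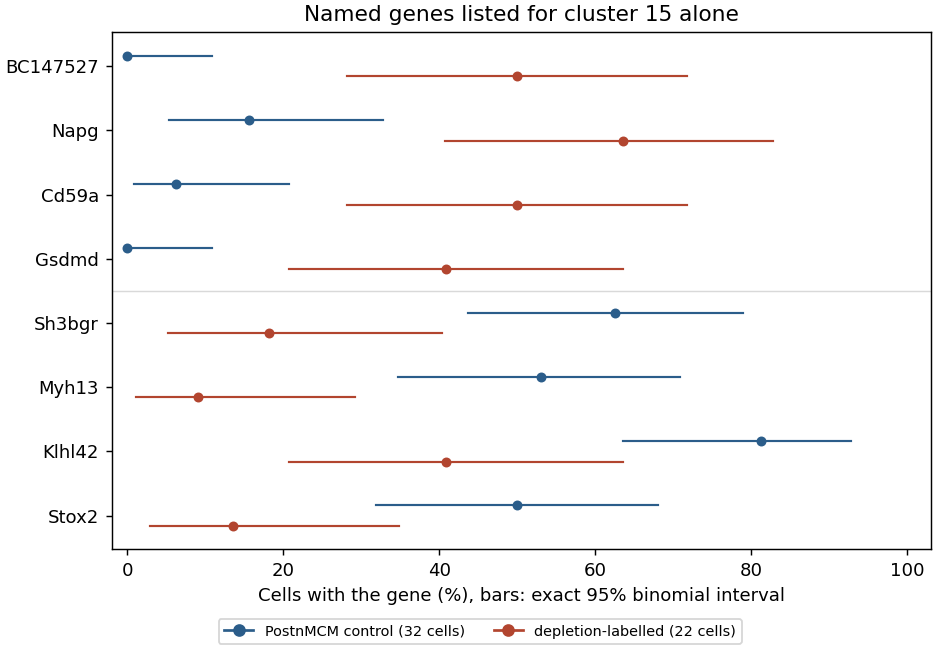
Share of cells of cluster 15 (x axis, percent) with the 4 genes highest and the 4 genes lowest in the depletion-labelled library among named genes listed for cluster 15 alone; points are shares on 32 control cells (blue) and 22 cells of the depletion-labelled library (red) with exact 95% binomial intervals. Gsdmd and BC147527 sit at 0.0% of control cells.

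Toll-like receptor and NF-kB genes, the sensing pathway for which plasmacytoid dendritic cells are known, had 7 of 31 members listed. Of these 6 had a higher and 1 a lower share in the depletion-labelled library, at a median of 23.9 points against -0.60 over the table, and 2 were higher by the size rule, which 12.5% of all listed genes were. Both of these encode inhibitory IkB proteins. Nfkbia was found in 50% of cells of the depletion-labelled library and 18.8% of control cells, and Nfkbid in 54.5% and 25%. Tnfaip3, encoding the NF-kB inhibitor A20, was found in 27.3% and 3.1%. Tlr7 itself, the receptor of single-stranded RNA, was found in 86.4% and 62.5%, or 19 of 22 and 20 of 32 cells. The member with a lower share, Rel, an NF-kB subunit, was found in 50% and 71.9% and, like Tlr7, did not reach the size rule.

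Immediate early genes are switched on within minutes of stimulation. Of 24 genes 5 were listed, and all 5 had a higher share, against 45.3% of all listed genes, at a median of 21.1 points. Of the 5, 2 reached the size rule, which 12.5% of all listed genes did upwards. Zfp36, whose protein destabilises cytokine transcripts, was found in 77.3% against 40.6% and Klf6 in 68.2% against 37.5%. Ier2 was found in 27.3% against 6.2% and Fos in 36.4% against 21.9%, below the size rule.

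The interferon response is the output of the same sensing pathway. Of 69 genes 9 were listed, 2 with a higher, 6 with a lower and 1 with an equal share. None reached the size rule, which 12.5% of all listed genes reached upwards and 11.9% downwards. The equal gene, Bst2, was at 100% in both libraries. The difference between this list and those above was not tested. Ifi207, encoding a nucleic acid-binding protein, was found in 31.8% against 50%, Ifi44 in 27.3% against 40.6%, and Ifi47, a GTPase induced by interferon, in 54.5% against 43.8%. No interferon gene was among those listed, which leaves their level in these cells without a value.

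Of 24 genes of MHC class I antigen presentation 10 were listed, 5 with a higher, 2 with a lower and 3 with an equal share, and 3 were higher by the size rule, against 12.5% of all listed genes. H2-M3, which presents formylated bacterial peptides, was found in 19 of 22 cells of the depletion-labelled library and in 14 of 32 control cells, or 86.4% and 43.8%. H2-T24 was found in 72.7% and 31.2%, and Tapbpl, a peptide editor of class I molecules, in 50% and 25%. H2-Q6 was found in 54.5% and 31.2%, and since the class I genes are a family of near-identical copies, reads may be split among them. H2-M3 and Tapbpl were each listed for 1 other cluster, the dendritic cells of cluster 17, at 27.3% against 65% and 9.1% against 35%. H2-T24 was higher in 4 of 4 other clusters that listed it, at 38% to 45.7% against 9.9% to 22.1%. H2-Q6 was higher in 6 of 7, and both genes were higher in 4 of 4 fibroblast subclusters. Of 13 MHC class II genes 6 were listed, 5 with a lower and 1 with an equal share, none reaching the size rule. Their shares lay at 81.8% or above in both libraries, and the classes were not compared by a test. H2-Eb1 was found in 86.4% and 96.9%, and H2-Aa, a chain of the I-A molecule, in 90.9% and 96.9%.

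Receptors for cytokines and chemokines had 7 of 31 genes listed, 5 with a higher and 2 with a lower share, none reaching the size rule. Csf2ra, a chain of the GM-CSF receptor, was found in 45.5% against 21.9% and Cxcr4, the receptor of CXCL12, in 36.4% against 15.6%. Ifngr1, a chain of the interferon-gamma receptor, was found in 31.8% against 15.6%. Of the transcription factors of myeloid and dendritic cells 6 of 29 were listed, 3 in each direction, and Klf6 alone reached the size rule. Irf4, listed for cluster 15 alone, was found in 9.1% against 31.2% and Cebpd in 22.7% against 46.9%, while Irf2 was found in 63.6% against 46.9%. The only chemokine listed of 23 was Ccl4, in 40.9% against 12.5%, and the only listed member of 24 Hippo pathway and YAP/TAZ target genes was the kinase Lats2, in 45.5% against 12.5%, both named after their values were seen.

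**Figure D4:**
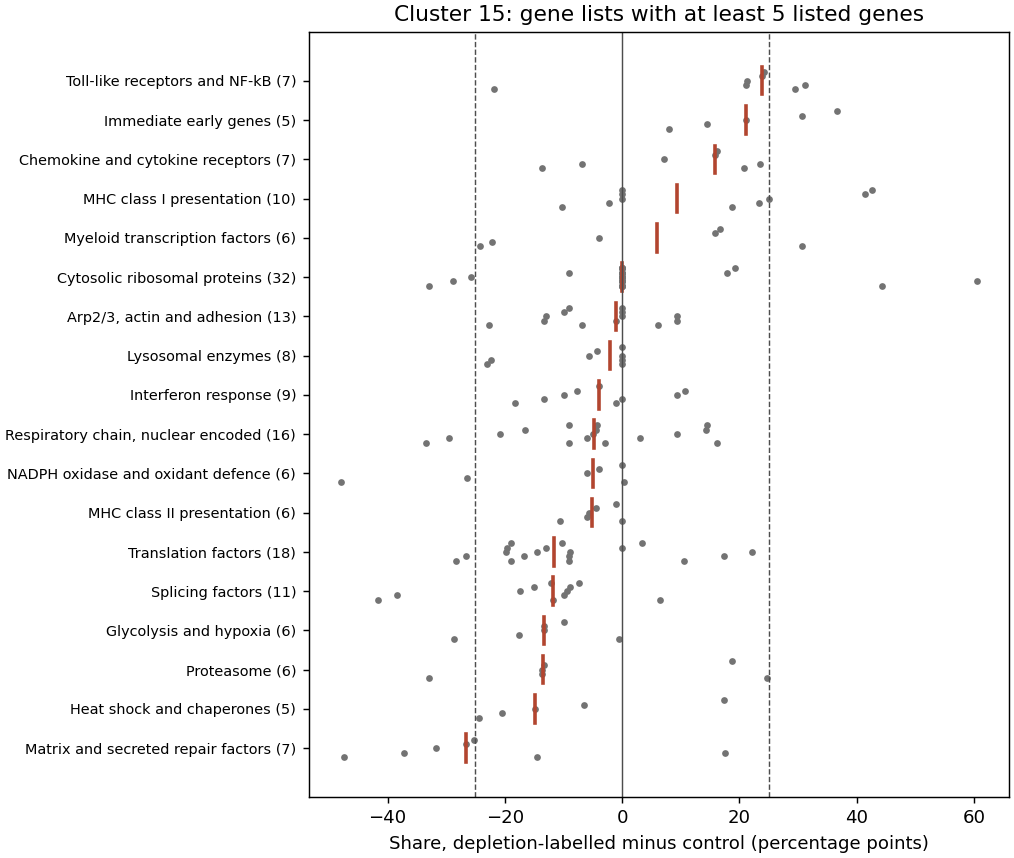
Difference between the shares of both libraries (x axis, depletion-labelled library minus control, percentage points) for the listed members of each gene list with at least 5 of them (number in parentheses); grey points are genes, red bars list medians and dashed lines 25 points. Medians run from 23.9 points for Toll-like receptor and NF-kB genes to -26.7 points for matrix and secreted repair factors.

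Matrix and calcium-binding S100 genes lay at the low end. Of 27 matrix and secreted repair factors 7 were listed, 6 of them with a lower share, and 5 were lower by the size rule, against 11.9% of all listed genes, at a list median of -26.7 points. Besides Fn1 these were Lgals3, encoding galectin-3, in 40.9% against 78.1%, Col3a1 in 18.2% against 50%, Spp1, encoding osteopontin, in 4.5% against 31.2%, and Sparc in 9.1% against 34.4%. All 3 listed S100 genes were lower by the size rule. S100a9 was found in 22.7% against 62.5%, S100a8 in 27.3% against 62.5% and S100a4 in 4.5% against 46.9%. These matrix and S100 genes were also lower in most other clusters that listed them, where the limit of 25% on listing bounds the higher share. S100a9 was lower in 12 of 12, Spp1 in 8 of 8, Sparc in 2 of 2 and Col3a1 in 8 of 9. S100a8 was lower in 8 of 10, Lgals3 in 7 of 10, S100a4 in 5 of 8 and Fn1 in 4 of 6.

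Several of these genes are markers of other cell types of the infarct. Both listed neutrophil markers of 20 (S100a8 and S100a9), all 3 listed classical monocyte markers of 12 (Ccr2, Chil3 and Fn1), both listed macrophage markers of 22 (Apoe and Spp1) and all 3 listed fibroblast markers of 13 (Col3a1, Sparc and Mgp) had lower shares in the depletion-labelled library, against 694 of all 1376 genes. Of these markers Ccr2, Apoe and Mgp did not reach the size rule. Pecam1, the only listed endothelial marker of 11, was found in 31.8% against 53.1%. Tmem123, the only listed marker of migratory dendritic cells of 9, was found in 77.3% against 90.6%. Both were lower without reaching the size rule. The listed markers of conventional dendritic cells went the other way, with Clec9a, Clec10a, Sirpa and Klrd1 all at higher shares and Klrd1 alone reaching the size rule. Chil3 was found in 9.1% against 46.9% and Mgp in 13.6% against 37.5%, and no listed neutrophil, monocyte, macrophage or fibroblast marker was at 0.0% in either library. S100a9 was found in 38.1% to 60% and 85% to 96.7% of cells of the fibroblast subclusters, which should lack it, and S100a8 in 40% to 71.4% and 78.3% to 91%. Shares of S100a8 and S100a9 in cluster 15 lay below those levels and are read here as background and not as expression. Chil3 was found in 0.0% to 9.4% and 43.5% to 80% of the same fibroblasts, and its shares in cluster 15 lay within those ranges and are read as background too. Col3a1 was listed for 8 clusters other than the fibroblasts, in 0.0% to 26% and 26.6% to 45.5% of cells. The part of transcripts from other cells in the lower matrix and S100 shares was not tested.

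Lists of general cell functions are given against the 11.9% of all listed genes that were lower by the size rule, and for splicing, translation, glycolysis, respiratory chain and proteasome genes the count lay within 1 gene of that share. Of 11 listed splicing factors of 40, 10 had a lower share at a median of -11.7 points, and Snrpd1, a core protein of the spliceosome, at 36.4% against 78.1%, and Srsf4 at 27.3% against 65.6% were lower by the size rule. Of 18 listed genes with symbols of translation factors 13 had a lower share, and Eef1akmt1 and Eif4ebp1, 2 regulators of such factors, were lower by the size rule, with Eif4ebp1 at 4.5% against 31.2%. All 6 listed glycolysis and hypoxia genes of 27 had a lower share at a median of -13.3 points, and Egln1, the oxygen-sensing prolyl hydroxylase, at 18.2% against 46.9% was lower by the size rule. Of 16 listed genes of the respiratory chain 11 had a lower share, and Ndufv1, a subunit of complex I, at 22.7% against 56.2% and Sdhb, a subunit of complex II, at 45.5% against 75% were lower by the size rule. Of 6 listed proteasome genes 4 had a lower and 2 a higher share. Psmb6, a catalytic subunit, was found in 54.5% against 87.5% and was lower by the size rule, while Psmd6 was found in 59.1% against 34.4% and Psme2 in 100% against 81.2%. Of the oxidant defence genes 6 of 22 were listed, and besides Prdx2 the NADPH oxidase subunit Ncf4 was lower by the size rule, at 45.5% against 71.9%.

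Where nearly every cell carried a gene, shares could not separate the libraries. Of 32 listed genes with symbols of cytosolic ribosomal proteins 24 were equal. By the size rule 2 were higher and 3 lower, against 12.5% and 11.9% of all listed genes. These 5 were 3 pseudogenes (Rpl27a-ps4, Rpl34-ps1 and Rps6-ps4), the kinase gene Rps6ka3 and the ribosomal-like gene Rpl7l1. Of 8 listed lysosomal genes of 33, 4 were equal and 4 lower, with Gusb at 36.4% against 59.4% and Lipa at 18.2% against 40.6%, and none reached the size rule. Of 13 listed actin and adhesion genes of 39 none reached it, nor did any of 5 listed chaperone genes of 29, of which 4 had a lower share and Tcp1, a subunit of the chaperonin that folds actin and tubulin, was found in 31.8% against 56.2%.

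Genes at 0 in one library were few. Of the 1376 genes, 14 were found in no cell of the depletion-labelled library and 7 in no control cell. By position, the 49 listed genes of chromosome 14 included 15 lower by the size rule, among them Rnase4 and Mtmr9, or 30.6% against 11.9% over the table, and 5 higher. On the other chromosomes with listed genes the share of lower genes ran from 5.56% on chromosome 1 to 23.3% on chromosome 12. These shares are a description and were not tested.

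Longer tables were common, but not general, where few cells were compared. Cluster 15 was the third smallest of the 18 clusters with a table (cluster 16 was not analysed here), with 0.703% of the cells inferred for the depletion-labelled library and 1.11% of those for the control library, and its table was the fourth longest. The 3 clusters of under 100 cells listed 1376 to 1914 genes, and the 7 clusters with at least 100 cells in the depletion-labelled library and at least 90 control cells listed 159 to 923, the highest of these in cluster 0, which has the most cells of all 18. In those 7 clusters at most 7.11% of listed genes were higher by the size rule and at most 4.46% lower, against 12.5% and 11.9% here. Cluster 14, with 26 and 79 cells, had 1.24% higher and 6.19% lower, cluster 8, with 48 and 171 cells, 2.21% and 3.13%, and cluster 6, with 355 and 27 cells, 3.84% and 14.8%. Cluster 9, with 189 and 17 cells, had 4.22% and 18.2%, and cluster 10, with 186 and 11 cells, 14.1% and 8.87%. In cluster 17, with 11 and 20 cells, the same percentages were 16.2% and 31.9%, and in cluster 18, with 17 and 11 cells, 13.7% and 25%. The part of the small cell number in the size of single differences in cluster 15 was not tested.

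**Figure D5:**
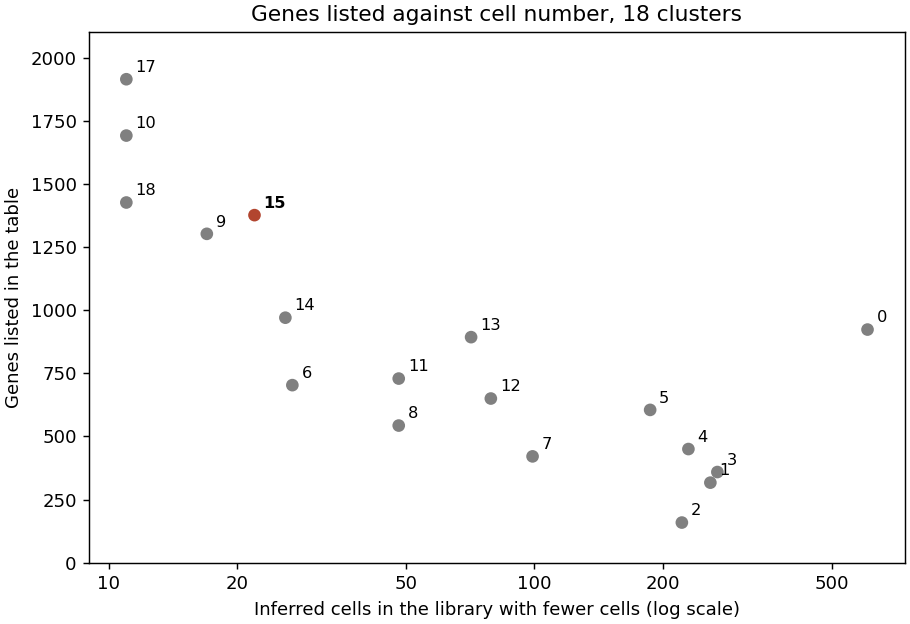
Number of genes listed for each of 18 clusters (y axis) against the inferred number of cells in whichever library had fewer (x axis, log scale); each point is a cluster with its number, cluster 15 in red. Cluster 15, with 22 cells, lists 1376 genes, between cluster 9 (1302) and cluster 18 (1426).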

How the data were processed

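Interstitial cells of 2 libraries, 1 per genotype, were sequenced on the 10x Chromium platform. The authors ran Cell Ranger 6.1.1 per the labels on a GRCm39 reference with added reporter sequences, combined the libraries without depth normalization, and filtered, normalized (SCTransform) and clustered the cells in Seurat; no doublet caller is named. The deposited tables hold, per gene, the fraction of cells with a corrected value above 0 in each library, rounded to 3 decimals and printed here as a percent. The authors kept genes present in 25% or more of the cells in either library and, by their code, with a log2 fold change of at least 0.25 in size. The tables also hold the authors' own fold changes, p-values and adjusted p-values over cells, which were not used. Counts, depth per cell and barcodes were not analysed here, so shares could not be matched for depth.

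Cell numbers were inferred as the smallest number up to 3000 of which all shares of a table are whole multiples at 3 decimals. The next numbers that also matched were 44 and 64 cells. On simulated shares of 1000 genes the step recovered 12 of 12 cell numbers. Exact Clopper-Pearson intervals at 95% and the limit of 3 counts for a share of 0 rest on the inferred numbers and cover counting error only. A difference of at least 25 percentage points was called by size. No test was run, because each group is 1 library. Named genes were the 10 largest differences in each direction, the 6 largest in each direction among genes listed for cluster 15 alone (gene models and pseudogenes left out; 1 gene is not reported here), up to 4 members of each gene list with at least 3 listed, and all listed cell type markers. The cluster, gene lists and rules were chosen with earlier results of these data known. Coordinates came from GENCODE M39 on GRCm39 by symbol, which matched 1322 of 1376 genes. Python 3.11.15, pandas 2.3.3, scipy 1.17.1 and matplotlib 3.10.9 were used, and alternatives are given at the end.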

Additional observations from a re-analysis of the deposited data

Results flagged for a closer look

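Some named genes differed by at least 25 points in one direction in cluster 15 and by at least 25 points in the other direction in another cluster, and the contrast between the clusters was not tested. All of them involve clusters 10, 17 or 18, each with 11 cells in one of its libraries. Khk was found in 86.4% of cells of the depletion-labelled library and 28.1% of control cells of cluster 15, and in 18.2% against 55% in cluster 17, a difference of -36.8 points. The class I genes H2-M3 and Tapbpl did likewise. H2-M3 was found in 86.4% against 43.8% in cluster 15 and differed by -37.7 points in cluster 17. Tapbpl was found in 50% against 25% in cluster 15 and differed by -25.9 points in cluster 17. Aff1 was found in 68.2% against 18.8% in cluster 15, and differed by -25.1 points in cluster 18. Lats2, at 45.5% against 12.5% in cluster 15, differed by -30.0 points in cluster 17. In the opposite sense, Sdhb was found in 45.5% against 75% in cluster 15 and differed by 32.7 points in cluster 17, where Eif4ebp1, at 4.5% against 31.2% in cluster 15, differed by 34.5 points. Psmb6 was found in 54.5% against 87.5% in cluster 15 and differed by 40.6 points in cluster 18, and Eef1akmt1, at 9.1% against 37.5% in cluster 15, by 33.4 points in cluster 10.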

How the results depend on the processing

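No paired analysis was possible because a single library stood for each genotype, and for the same reason no library could be left out. With a size rule of 15 points 449 genes were higher and 420 lower in the depletion-labelled library, with 40 points 21 and 14, and among genes with a share of at least 50% in either library 108 and 102. A log2 ratio of shares of at least 1 (206 and 160), centring on the median difference (181 and 147) and leaving out ribosomal protein genes, pseudogenes and gene models (157 and 149) kept the counts within 1.5 times. The percent of genes with a higher share, 45.3%, was 49.7% among differences of at least 10 points, 41.2% among genes with a share of at least 50% in either library and 45.7% without ribosomal protein genes, pseudogenes and gene models; among genes listed for cluster 15 alone it was 52.7%, so the majority turned. Genes listed for cluster 15 and at most 1 other cluster numbered 651, genes with no difference of at least 10 points elsewhere 441, and genes listed for it alone that reached 25 points 77. Both cell numbers were the same from shares under 50% and from 99% of the shares. Centring moved every difference by the same 0.60 points, and a log2 ratio has the sign of the difference by construction, so neither could turn a gene chosen by size. Each share carries the counting error of 22 or 32 cells, and expression in cells that already carry a gene is not seen by it.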
